A study of Mus musculus with 3 samples.

Results

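The gene group described here was platelet granule and megakaryocyte genes, and it comprised 7 genes chosen by symbol, Pf4, Ppbp, Treml1, Clec1b, Vwf, Tubb1 and Thbs1, all of them found among the 26970 genes of the table. The RNA came from the mandibular condyle, the cartilage-covered bony head of the lower jaw, taken with its subchondral bone from mice aged 4 months on the C57BL/6 background. There were 3 libraries, 1 for each genotype: wild type (WT), Dspp+/- mice with 1 disrupted copy of Dspp, and Dspp-/- mice with both copies disrupted. The disruption was present in every cell of the body, and Dspp encodes dentin sialophosphoprotein, a protein of mineralised tissue. The WT and the Dspp+/- library were each made from pooled tissue of 3 animals, and the number for Dspp-/- was not given in the sources used here. With 1 value per gene and genotype there were no replicates, so no test between genotypes was possible, and a difference between libraries cannot be told apart from a difference between the pooled animals or dissections.

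Platelets are cell fragments shed into the blood by megakaryocytes, the giant polyploid cells of the bone marrow. They carry little RNA of their own, and most of their proteins are made and packed in the megakaryocyte. Alpha granules hold chemokines and adhesive proteins that are released at a wound, dense granules hold small molecules such as ADP and serotonin, and receptors on the surface start the release. In the group, Pf4 (platelet factor 4, CXCL4) and Ppbp (pro-platelet basic protein, the precursor of CXCL7) are alpha granule chemokines. Treml1 (TLT-1) is a receptor that alpha granules carry to the surface, and Clec1b (CLEC-2) is a surface receptor for podoplanin. Tubb1 is the beta tubulin of the ring of microtubules that gives the platelet its disc shape. Vwf (von Willebrand factor) and Thbs1 (thrombospondin-1) are large adhesive glycoproteins that alpha granules hold, but endothelium also makes the first and many stromal cells make the second.

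RefSeq windows from 250 bases before to 50 bases after the start site were at hand for 5 of the 7 genes, and all 5 are shown. None was at hand for Vwf and Thbs1, so the windows were not chosen by the levels of the genes. The build of the windows was GRCm38.p6, and all lie on the plus strand. Pf4 is at chr5:90772185-90772484, Ppbp at chr5:90768268-90768567, Treml1 at chr17:48359666-48359965, Clec1b at chr6:129397047-129397346 and Tubb1 at chr2:174450345-174450644. Capitals mark each match, on either strand, to a GATA factor motif (AGATAA or AGATAG or TGATAA or TGATAG) or to an ETS factor motif (AGGAAA or AGGAAG or CGGAAA or CGGAAG). Matches on the minus strand appear as the reverse complement, and no GATA match overlapped an ETS match.
Pf4: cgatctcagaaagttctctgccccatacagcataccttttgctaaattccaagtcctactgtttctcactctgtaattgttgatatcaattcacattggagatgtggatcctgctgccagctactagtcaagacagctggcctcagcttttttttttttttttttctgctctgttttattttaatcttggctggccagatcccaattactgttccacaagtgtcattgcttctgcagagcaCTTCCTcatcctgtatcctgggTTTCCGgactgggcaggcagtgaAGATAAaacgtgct
Ppbp: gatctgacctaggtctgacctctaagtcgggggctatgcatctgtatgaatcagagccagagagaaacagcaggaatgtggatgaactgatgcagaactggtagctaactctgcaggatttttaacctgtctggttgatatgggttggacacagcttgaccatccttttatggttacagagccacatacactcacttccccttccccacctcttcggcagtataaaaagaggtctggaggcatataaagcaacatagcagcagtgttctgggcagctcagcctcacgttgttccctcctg
Treml1: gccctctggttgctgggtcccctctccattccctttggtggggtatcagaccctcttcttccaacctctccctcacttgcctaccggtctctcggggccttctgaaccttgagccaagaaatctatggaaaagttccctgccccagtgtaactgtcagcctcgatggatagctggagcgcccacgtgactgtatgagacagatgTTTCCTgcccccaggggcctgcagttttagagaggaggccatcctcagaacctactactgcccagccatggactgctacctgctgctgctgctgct
Clec1b: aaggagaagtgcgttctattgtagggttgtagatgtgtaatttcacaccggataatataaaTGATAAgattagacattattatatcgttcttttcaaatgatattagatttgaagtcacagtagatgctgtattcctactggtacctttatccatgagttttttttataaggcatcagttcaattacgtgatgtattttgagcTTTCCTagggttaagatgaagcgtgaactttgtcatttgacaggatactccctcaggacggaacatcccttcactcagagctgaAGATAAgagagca
Tubb1: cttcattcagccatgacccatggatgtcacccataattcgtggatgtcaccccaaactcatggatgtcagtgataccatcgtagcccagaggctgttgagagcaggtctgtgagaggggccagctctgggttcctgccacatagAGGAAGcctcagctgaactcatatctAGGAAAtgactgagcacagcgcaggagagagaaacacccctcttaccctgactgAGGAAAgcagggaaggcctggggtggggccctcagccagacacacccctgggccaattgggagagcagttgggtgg

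The GATA motif was found in 2 of the 5 windows, against 29.8% of all 32851 windows of the same length. In Pf4 it began 37 bases after the start. In Clec1b 1 match began 189 bases before the start and a second 38 bases after it. The ETS motif was found in 4 of the 5 windows, against 64.7% of all windows. Tubb1 held 3 ETS matches, beginning 106, 80 and 26 bases before the start, Pf4 held 2, and Treml1 and Clec1b held 1 each at 46 and 47 bases before the start. The Ppbp window held neither motif. These are matches of letters, and whether a factor binds there was not measured.

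Levels are given as FPKM, fragments per kilobase of exon scaled to the size of the library, which puts genes of different length on 1 scale. Values under 100 fragments, which Treml1, Clec1b and Tubb1 had among the 7 genes, were whole multiples of what 1 fragment is worth. Larger values were turned into fragments with the same constant and were not checked in this way. The libraries held 20241576 (WT), 23613621 (Dspp+/-) and 22253158 (Dspp-/-) fragments, and 1 fragment in 1 kb of exon was worth 0.0494, 0.0423 and 0.0449 FPKM. Intervals in parentheses are 95% intervals of counting error alone, exact Poisson for a level and Clopper-Pearson for a fold. A difference on the log2 scale is one of log2(FPKM + 1), which understates the change of low genes, and the counts of genes past 2-fold use that scale and the 13026 genes that averaged 1 FPKM or more.

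Of the 7 genes, 6 passed this filter, and Clec1b did not, at a mean of 0.796 FPKM. Pf4, Ppbp, Treml1 and Tubb1 were at least 2-fold higher in Dspp+/- than in WT, where 4.88% of all genes tested were, and none of the 6 was 2-fold lower, where 2.86% of all genes were. The same 4 genes were at least 2-fold higher in Dspp-/- than in WT, against 4.05% of all genes, and again none was lower, against 1.37%. The median difference over the 6 genes was 1.63 on the log2 scale in Dspp+/- and 1.34 in Dspp-/-, and over all genes tested it was 0.058 and 0.0070. Both comparisons used the single WT library, and a gene low in WT, such as Treml1, passed the filter through its level in the mutants, so these counts describe the genes and are no support for a difference.

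**Figure D1:**
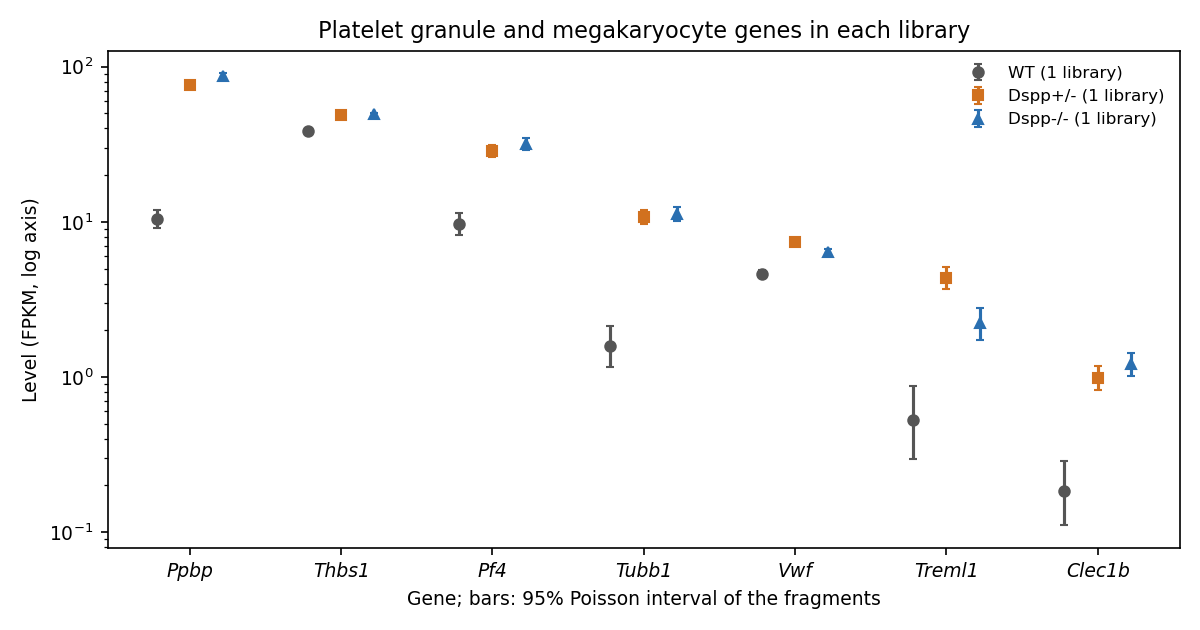
Level of each of the 7 genes (FPKM, log axis) in the WT, Dspp+/- and Dspp-/- libraries, with 95% Poisson intervals of the fragments as bars. Every gene is lowest in WT, from Clec1b at 0.184 FPKM to Thbs1 at 38.4 FPKM, and Ppbp stands at 10.4, 75.6 and 86.7 FPKM.

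Ppbp had the largest difference of the 7 on the log2 scale in both mutants, and it is the chemokine precursor whose cleaved forms attract neutrophils. The gene (ENSMUSG00000029372) is on the plus strand of chromosome 5 at 90916377 to 90917922, as the authors' table gives positions, in a build that it does not name. It stood at 10.4 FPKM (9.14 to 11.9) in WT from 229 fragments, at 75.6 FPKM (72.3 to 79.1) in Dspp+/- from 1934 fragments, and at 86.7 FPKM (83.0 to 90.5) in Dspp-/- from 2090 fragments. WT was low and the intervals of the mutants did not overlap with it or with each other. The Dspp+/- level was 7.24-fold (6.31 to 8.34) that of WT, a log2 difference of 2.74, and the Dspp-/- level was 8.30-fold (7.24 to 9.56), a log2 difference of 2.94. Counted down from the highest level, Ppbp was gene 3845 of the table in WT, 422 in Dspp+/- and 324 in Dspp-/-.

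Pf4, the heparin-binding chemokine of the alpha granule, lies 2371 bases beyond Ppbp on the same strand, at 90920294 to 90921242 of chromosome 5 (ENSMUSG00000029373). It stood at 9.73 FPKM (8.20 to 11.5) in WT from 142 fragments, at 28.5 FPKM (26.0 to 31.1) in Dspp+/- from 485 fragments and at 31.6 FPKM (28.9 to 34.5) in Dspp-/- from 507 fragments. The WT level lay apart from both mutants, whose intervals overlapped. The Dspp+/- level was 2.93-fold (2.42 to 3.56) that of WT and the Dspp-/- level 3.25-fold (2.69 to 3.94), differences of 1.46 and 1.60 on the log2 scale. Both were smaller folds than those of its neighbour Ppbp. The chemokine genes next to this pair were near or below detection: Cxcl5, 6893 bases before Ppbp, had 0 fragments in WT against 16 and 15 in Dspp+/- and Dspp-/-. Cxcl1 had 2, 12 and 4 fragments, and Cxcl2 had 0, 2 and 0. Cxcr2, a receptor on neutrophils for the processed Ppbp product, stood at 1.65, 12.6 and 13.6 FPKM in WT, Dspp+/- and Dspp-/-, while Cxcr1 had 0, 21 and 19 fragments and Cxcr3, a chemokine receptor of T cells, had 8, 35 and 16.

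Tubb1 (ENSMUSG00000016255), whose protein is largely restricted to megakaryocytes and platelets, is on the plus strand of chromosome 2 at 174292488 to 174299675. It stood at 1.58 FPKM (1.15 to 2.12) in WT from 45 fragments, at 10.8 FPKM (9.67 to 11.9) in Dspp+/- from 357 fragments and at 11.2 FPKM (10.05 to 12.4) in Dspp-/- from 350 fragments. The mutant intervals overlapped almost entirely and lay far above WT. The folds over WT were 6.80 (4.98 to 9.49) in Dspp+/- and 7.07 (5.18 to 9.88) in Dspp-/-, with log2 differences of 2.19 and 2.24. No other beta tubulin had a difference of this size. Over all genes tested, 4.88% and 4.05% were at least 2-fold higher in Dspp+/- and Dspp-/-, and 2.86% and 1.37% lower. Among the 7 other beta tubulins of the table, 6 passed the filter and 0 were 2-fold higher or lower in either mutant, with median log2 differences of -0.24 and -0.22. The general Tubb5 had the highest level of them and stood at 63.7, 80.7 and 76.9 FPKM. Of those that passed, Tubb4b differed most upward, at 51.7, 83.1 and 63.1 FPKM, and Tubb2b most downward in Dspp+/-, at 2.28, 1.05 and 2.06 FPKM. The genes flanking Tubb1 did not share its pattern: Ctsz, a lysosomal protease gene 11655 bases before it, stood at 117, 66.3 and 61.9 FPKM, and Atp5e, 3189 bases after it, at 63.3, 76.9 and 73.3 FPKM.

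Treml1 (ENSMUSG00000023993) is on the plus strand of chromosome 17 at 48666944 to 48674204, among the genes of the TREM receptor family. It stood at 0.529 FPKM (0.296 to 0.872) in WT from 15 fragments, at 4.35 FPKM (3.67 to 5.12) in Dspp+/- from 144 fragments and at 2.21 FPKM (1.72 to 2.80) in Dspp-/- from 69 fragments. All 3 intervals lay apart, with Dspp+/- highest. Dspp+/- was 8.23-fold (4.83 to 15.1) and Dspp-/- 4.18-fold (2.37 to 7.88) the WT level, with log2 differences of 1.81 and 1.07. With 15 fragments in WT, these folds had the widest intervals of the 7 genes as a ratio of upper to lower bound. In the same cluster Trem1, an amplifying receptor of neutrophils and monocytes, stood at 0.198, 2.16 and 2.55 FPKM, Trem3 at 0.994, 8.05 and 5.61 FPKM, and Treml2 at 0.653, 4.04 and 3.42 FPKM. These 3 of the 4 TREM neighbours that passed the filter were at least 2-fold higher in both mutants, where 4.88% and 4.05% of all genes were. The fourth, Trem2, a receptor of macrophages and osteoclasts 5768 bases from Treml1, stood at 1.08, 1.34 and 0.990 FPKM, and Treml4, below the filter, at 0.247, 1.31 and 0.945 FPKM.

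Clec1b (ENSMUSG00000030159) is on the plus strand of chromosome 6 at 129374260 to 129386298, in a cluster of C-type lectin receptors. It stood at 0.184 FPKM (0.111 to 0.287) in WT from 19 fragments, at 0.988 FPKM (0.818 to 1.18) in Dspp+/- from 119 fragments and at 1.22 FPKM (1.02 to 1.44) in Dspp-/- from 138 fragments. WT was low and the mutants overlapped. The folds of 5.37 (3.29 to 9.23) and 6.61 (4.07 to 11.3) became log2 differences of only 0.75 and 0.90, because at these levels the added 1 FPKM outweighs the WT value. The length used for Clec1b was 5103 bases of merged exons, 4.68 times the 1090 bases of its principal transcript. Per principal transcript its levels would be 0.861, 4.62 and 5.69 FPKM. Its exons share 3.61% of the merged exon length with the next gene, Clec9a, on the same strand, so a small part of the fragments could not be assigned to 1 of the pair. Clec7a (dectin-1), in this cluster, stood at 1.46, 9.13 and 7.60 FPKM and Olr1 at 0.304, 1.75 and 1.35 FPKM. These were the 2 of 5 lectin neighbours past 2-fold higher in Dspp+/-, and Clec7a was the 1 past it in Dspp-/-. Over all genes tested, 4.88% and 4.05% were past it. Clec12a stood at 4.99, 8.76 and 8.75 FPKM, Clec1a at 1.67, 2.28 and 2.06 FPKM, and Clec2d at 8.63, 7.09 and 10.2 FPKM. Pdpn (podoplanin), which is the ligand of the Clec1b product and is made by osteocytes, fibroblasts and lymphatic endothelium, was lower in the mutants, at 9.33, 5.55 and 7.37 FPKM.

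**Figure D2:**
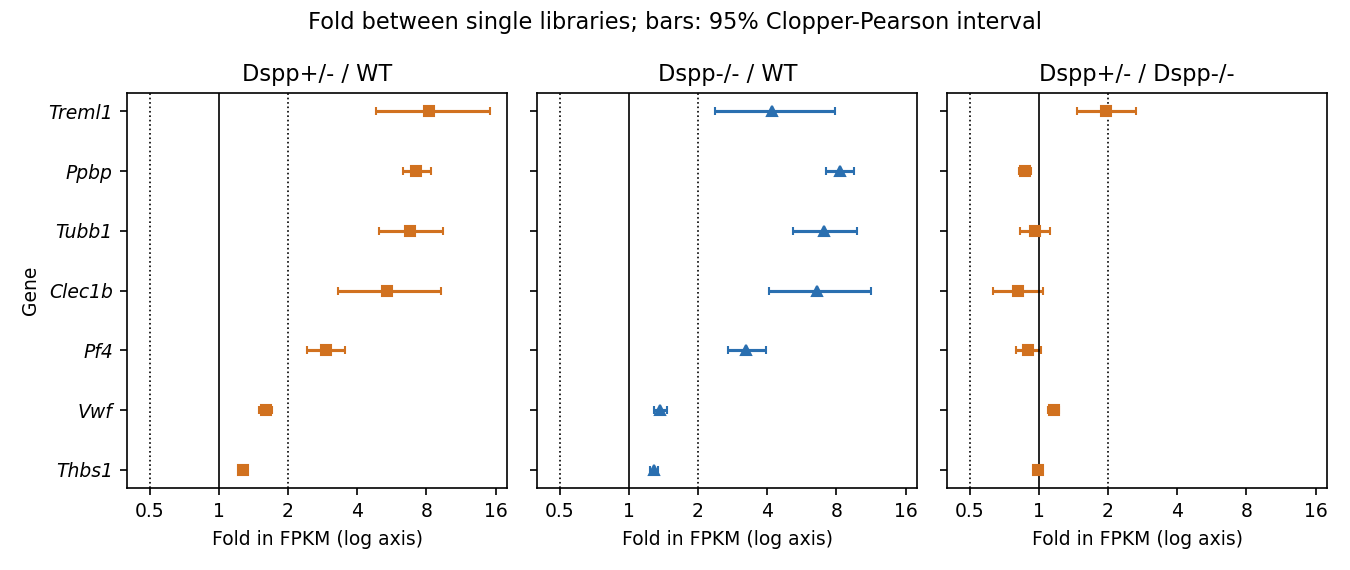
Fold in FPKM between single libraries for each gene (log axis), with 95% Clopper-Pearson intervals as bars and dotted lines at 2-fold in either direction. Treml1, Ppbp, Tubb1, Clec1b and Pf4 lie past 2-fold in both mutants over WT, while Vwf (1.60 and 1.37) and Thbs1 (1.27 and 1.284) do not.

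Vwf and Thbs1, the glycoproteins with sources outside the platelet, had the smallest folds. Vwf (ENSMUSG00000001930), which tethers platelets to a damaged vessel wall, is on the plus strand of chromosome 6 at 125523737 to 125663642. It stood at 4.64 FPKM (4.41 to 4.88) in WT from 1508 fragments, at 7.41 FPKM (7.14 to 7.69) in Dspp+/- from 2810 fragments and at 6.36 FPKM (6.11 to 6.63) in Dspp-/- from 2275 fragments. The 3 intervals lay apart, with WT lowest. The folds were 1.60 (1.4999 to 1.70) and 1.37 (1.29 to 1.47), log2 differences of 0.58 and 0.39. Endothelial markers beside it summed to 338, 331 and 326 FPKM, and of the 15 markers 0 were 2-fold higher in either mutant, 1 was lower in Dspp+/- and none in Dspp-/-. Of all genes tested, 4.88% and 4.05% were higher in Dspp+/- and Dspp-/-, and 2.86% and 1.37% lower. The median differences of the markers were 0.10 and 0.06 on the log2 scale. The 1 lower marker was Plvap, at 61.4, 28.8 and 39.0 FPKM. Cdh5, VE-cadherin, stood at 48.9, 56.2 and 52.8 FPKM, and Flt1, the marker with the largest positive difference in Dspp+/-, at 13.7, 19.2 and 17.5 FPKM. Adamts13, the protease that cuts von Willebrand factor multimers, had 4, 0 and 2 fragments, too few for a comparison.

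Thbs1 (ENSMUSG00000040152) is on the plus strand of chromosome 2 at 117942357 to 117957614. It was the highest of the 7 genes in WT, at 38.4 FPKM (37.3 to 39.5) from 4720 fragments, and stood at 48.9 FPKM (47.8 to 50.05) in Dspp+/- from 7011 fragments and at 49.3 FPKM (48.1 to 50.5) in Dspp-/- from 6664 fragments. The mutants overlapped and lay above WT by a small margin, 1.27-fold (1.23 to 1.32) and 1.284-fold (1.24 to 1.33), or 0.34 and 0.35 on the log2 scale. An antisense gene, Gm29233, overlaps 3.42% of its exon length, and the kit did not mark strand. The other thrombospondins, matrix proteins of cartilage and tendon, differed in the other direction: Comp stood at 462, 312 and 227 FPKM, Thbs4 at 181, 159 and 136 FPKM, Thbs2 at 33.2, 26.6 and 28.1 FPKM, and Thbs3 at 24.9, 10.6 and 13.4 FPKM. Of these 4 genes, Thbs3 was 2-fold lower in Dspp+/- and Comp in Dspp-/-, against 2.86% and 1.37% of all genes. Among receptors of thrombospondin-1, Cd36 stood at 84.1, 217 and 175 FPKM and Cd47 at 20.8, 28.1 and 30.8 FPKM.

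In WT the order of the 7 levels was Thbs1, Ppbp, Pf4, Vwf, Tubb1, Treml1 and Clec1b, and only the intervals of Ppbp and Pf4 overlapped among neighbours in it. In both mutants Ppbp moved above Thbs1 and Tubb1 above Vwf, and no neighbouring intervals overlapped. Per principal transcript, Clec1b would stand above Treml1 in WT and Dspp-/-, Vwf above Tubb1 in every library, and Pf4 above Ppbp in WT. The 7 genes summed to 65.5, 176 and 189 FPKM in the order WT, Dspp+/- and Dspp-/-, and without Vwf and Thbs1 to 22.5, 120.2 and 133 FPKM. Thbs1 made up 58.6% of the sum in WT and 27.7% and 26.1% in the mutants, and Ppbp went from 15.9% to 42.8% and 46.0%.

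Ratios between genes within 1 library do not depend on its scaling, and they show which proportions differed beyond counting error. The ratio of Ppbp to Tubb1 was 6.61 (4.78 to 9.31) in WT and, in Dspp+/- and Dspp-/-, 7.03 (6.28 to 7.90) and 7.75 (6.92 to 8.71), with overlapping intervals. Clec1b to Tubb1 was likewise 0.116 (0.0643 to 0.203), 0.0918 (0.0740 to 0.113) and 0.109 (0.0886 to 0.133). For Ppbp, Tubb1 and Clec1b no difference in proportion beyond counting error was thus seen, though the wide WT intervals leave room for one. The ratio of Pf4 to Tubb1 did differ: it was 6.15 (4.37 to 8.81) in WT against 2.65 (2.31 to 3.05) and 2.82 (2.46 to 3.25) in the mutants. Ppbp to Pf4 was 1.07 (0.867 to 1.33) in WT against 2.65 (2.40 to 2.94) and 2.74 (2.49 to 3.03). Relative to Ppbp and Tubb1, Pf4 therefore stood higher in WT than in either mutant. Treml1 to Tubb1 was 0.334 (0.173 to 0.611) in WT. It was 0.405 (0.331 to 0.492) in Dspp+/- against 0.198 (0.150 to 0.257) in Dspp-/-, and here it was the mutants whose intervals lay apart.

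**Figure D3:**
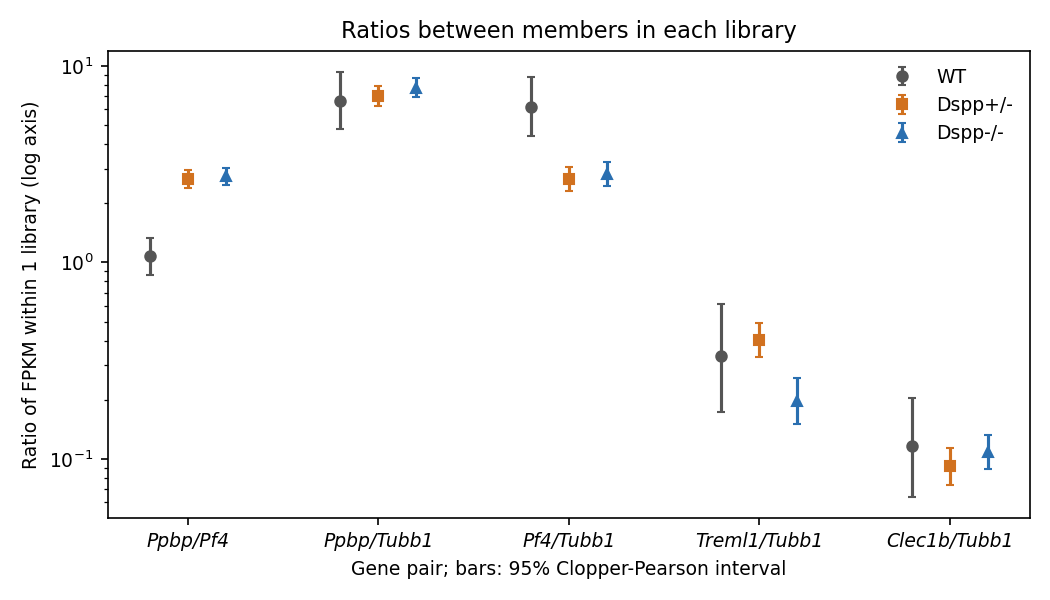
Ratio of FPKM between pairs of genes within each library (log axis), with 95% Clopper-Pearson intervals as bars. Ppbp to Tubb1 and Clec1b to Tubb1 overlap in the 3 libraries, while Pf4 to Tubb1 stands at 6.15 in WT against 2.65 and 2.82 in the mutants.

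Between the mutants the genes differed little. None of the 6 genes past the filter was 2-fold higher or lower in Dspp+/- than in Dspp-/-, where 0.798% of all genes were higher and 0.852% lower, and the median difference was -0.032 on the log2 scale, against 0.037 over all genes. Treml1 had the largest difference, 1.97-fold (1.47 to 2.66) higher in Dspp+/-, or 0.74 on the log2 scale. Vwf was 1.16-fold (1.10 to 1.23) higher in Dspp+/-, and Ppbp was lower, at 0.872-fold (0.819 to 0.928). The intervals of the other 4 ratios, Pf4 at 0.901 (0.794 to 1.02), Clec1b at 0.813 (0.631 to 1.05), Tubb1 at 0.961 (0.827 to 1.12) and Thbs1 at 0.991 (0.959 to 1.03), included a ratio of 1.

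Platelet surface receptors were a further part of the platelet programme. Of 16 in the table, 15 passed the filter, and 7 were at least 2-fold higher in Dspp+/- and 8 in Dspp-/-, against 4.88% and 4.05% of all genes. None was lower in either, against 2.86% and 1.37%, and the medians were 0.96 and 1.10 on the log2 scale. Gp5, a subunit of the receptor for von Willebrand factor, had the largest difference in Dspp+/-, at 0.899, 6.57 and 5.34 FPKM. Its partner Gp9 stood at 1.07, 7.16 and 7.04 FPKM. Itga2b, the fibrinogen receptor subunit that defines the megakaryocyte lineage, stood at 1.08, 5.62 and 4.42 FPKM. Gp5, Gp9 and Itga2b were low in WT and close to each other in the mutants. Itgb3, the other subunit of the fibrinogen receptor, was lower in both mutants, at 37.8, 25.8 and 30.9 FPKM. Its level was far above that of Itga2b in every library, and which cells it came from was not tested. Cd9, the highest of the list, stood at 119, 80.3 and 102 FPKM, and Itga2, a collagen receptor subunit and the gene with the largest negative difference in Dspp+/-, at 7.34, 3.84 and 6.39 FPKM.

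Megakaryocyte transcription factors were higher in part. Among the 10 that passed the filter, of 11, there were 6 at least 2-fold higher in Dspp+/- and 4 in Dspp-/-, against 4.88% and 4.05% of all genes. None was lower, against 2.86% and 1.37%, and the medians were 1.33 and 0.80. Nfe2, which drives the last steps of platelet formation and also acts in red cell precursors, had the largest log2 difference, at 1.11, 10.4 and 8.81 FPKM. It was 9.37-fold (7.29 to 12.2) higher in Dspp+/- than in WT. Gata1, at 0.142, 4.01 and 2.36 FPKM, Gfi1b, at 0.216, 3.68 and 2.01 FPKM, and Tal1, at 1.24, 7.19 and 5.24 FPKM, made up the 4 in Dspp-/- with Nfe2, and all 4 serve the erythroid lineage as well. Runx1 stood at 6.79, 5.82 and 6.79 FPKM. The highest of the list, Mafg, the small partner of the Nfe2 product, stood at 19.1, 21.1 and 15.5 FPKM.

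Beside the 4.88% and 4.05% of all genes that were at least 2-fold higher in Dspp+/- and Dspp-/-, the further granule lists held 1 or 2 such genes each. The shares of all genes at least 2-fold lower were 2.86% and 1.37%. These counts use log2(FPKM + 1). In FPKM itself, Selp (3.10-fold, 2.33 to 4.17), Nbeal2 (2.26-fold) and Stx11 (2.12-fold) were also past 2-fold higher in Dspp+/-. So was Slc35d3 (7.54-fold, 3.00 to 24.4), which was below the filter, while Serpine2 (0.499-fold) was past 2-fold lower. Of 12 alpha granule cargo and biogenesis genes past the filter, of 13, Mmrn1 and Srgn were the 2 at least 2-fold higher in Dspp+/-, and Mmrn1 the 1 in Dspp-/-, with 0 lower and medians of -0.19 and -0.031. Mmrn1 (multimerin-1, a carrier of factor V that endothelium makes too) stood at 1.21, 3.85 and 4.61 FPKM, and Srgn, the granule proteoglycan of many blood cells, at 17.2, 36.9 and 29.8 FPKM. Serpine2, the highest of the list and also made by mesenchymal cells, was lower, at 107, 53.3 and 74.4 FPKM. Of 12 dense granule genes past the filter, of 13, Unc13d was the 1 higher in Dspp+/- and Rab38 the 1 lower. Unc13d and Lyst were the 2 higher in Dspp-/-, and 0 were lower there. The medians were -0.043 in Dspp+/- and 0.12 in Dspp-/-. Unc13d, a priming factor of granule release also used by lymphocytes, stood at 0.697, 3.72 and 2.53 FPKM, Lyst at 2.99, 5.74 and 6.98 FPKM, and Rab38, a small GTPase of lysosome-related organelles, at 8.74, 3.36 and 5.07 FPKM.

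Of the 21 platelet signalling and cytoskeleton genes, all past the filter, 8 were at least 2-fold higher in Dspp+/- and 4 in Dspp-/-. The shares of all genes were 4.88% and 4.05%. None of the 21 was lower, against 2.86% and 1.37% of all genes, and their medians were 0.80 and 0.45. Bin2 had the largest log2 difference, at 1.59, 9.30 and 8.09 FPKM. The others past 2-fold in Dspp-/- were Alox12, the platelet lipoxygenase, at 1.02, 4.86 and 4.81 FPKM, Apbb1ip (RIAM, an adaptor of integrin activation) at 0.920, 3.58 and 3.39 FPKM, and Plek (pleckstrin) at 7.50, 19.8 and 21.7 FPKM. Tuba4a, an alpha tubulin of platelets and of muscle and the highest gene of the list, stood at 45.8, 123 and 75.5 FPKM. Tpm4 stood at 54.3, 40.6 and 54.5 FPKM.

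Marker lists of other cell types moved alongside, and in bulk tissue fewer cells of a type and less RNA per cell cannot be told apart. The counts below stand beside 4.88% and 4.05% of all genes at least 2-fold higher in Dspp+/- and Dspp-/-, and 2.86% and 1.37% lower. Of 18 erythroid markers, 15 were at least 2-fold higher in each mutant (sums of 968, 3886 and 3769 FPKM), and of 15 neutrophil markers all were (657, 2970 and 3918 FPKM). Among 9 B cell markers past the filter 5 were higher in each mutant (217, 364 and 388 FPKM), and of 9 macrophage markers none was past 2-fold either way (190, 164 and 164 FPKM). Chondrocyte markers summed to 1143, 179 and 476 FPKM, with 8 and 6 of 10 at least 2-fold lower, and osteoblast markers to 13566, 3609 and 7227 FPKM, with 11 and 4 of 12 lower. Osteoclast markers, with 5 and 1 of 10 lower, summed to 1779, 614 and 999 FPKM, and fibroblast and tendon markers, with 3 and 0 of 11 lower, to 2981, 1491 and 2211 FPKM. Smooth muscle markers (255, 287 and 288 FPKM, 0 of 5 past 2-fold) and immediate early genes (606, 390 and 451 FPKM, 1 of 13 higher and 1 lower in Dspp+/-, none in Dspp-/-) moved less. Skeletal muscle markers summed to 10841, 14691 and 11846 FPKM, with 2 of 8 lower in Dspp+/-. No marker of these lists was at 0 in any library. Mitochondrially encoded genes took 9.58%, 16.5% and 16.1% of fragments, and Xist, which is transcribed in females, had 2, 12084 and 10563 fragments, so the sex of the pooled animals and the genotype cannot be told apart. The part of these differences in the values of the platelet genes was not tested.

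**Figure D4:**
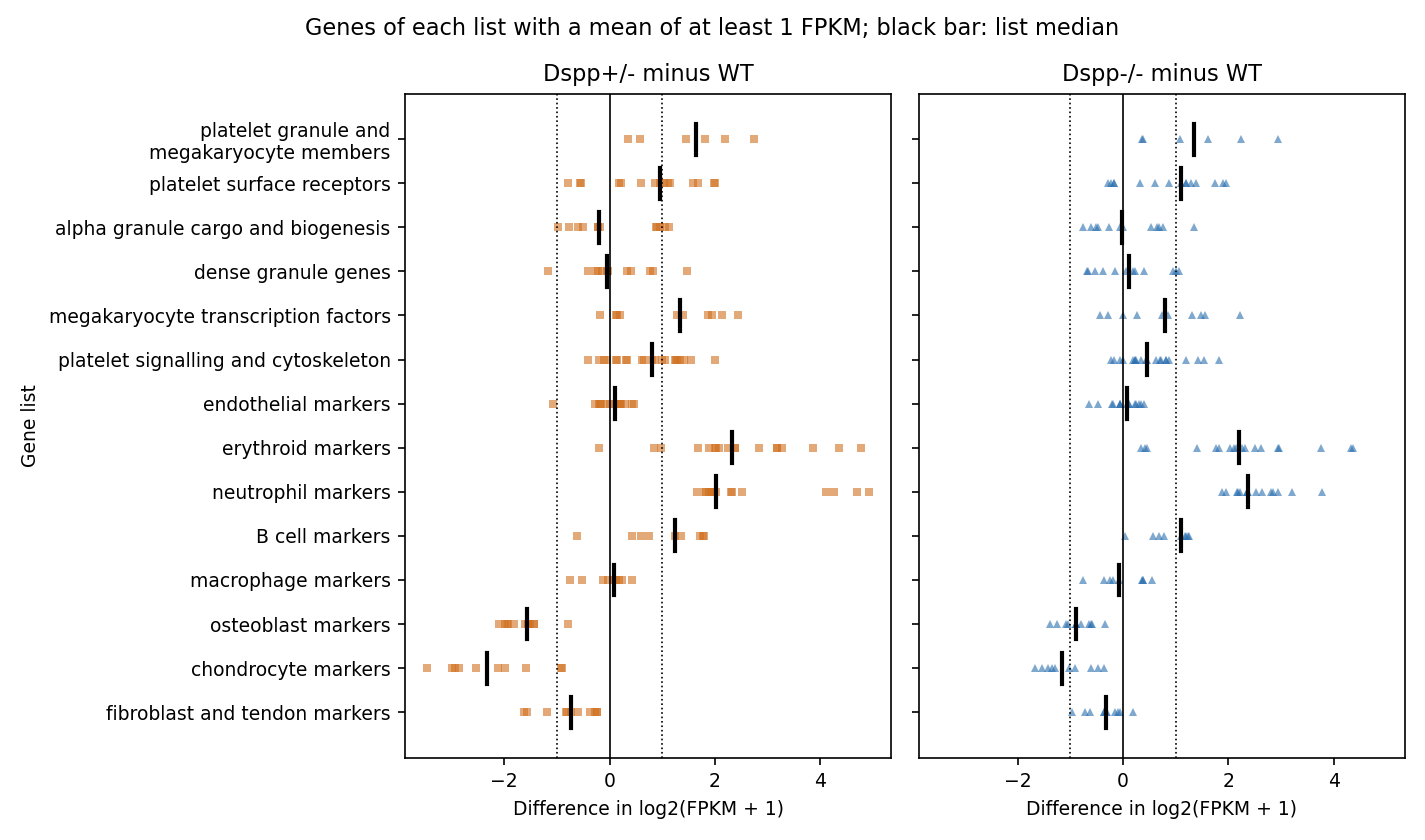
Difference in log2(FPKM + 1) of Dspp+/- (left) and Dspp-/- (right) against WT for every gene of each list that averaged 1 FPKM or more. Points are genes, black bars list medians and dotted lines 2-fold. The medians of the platelet genes (1.63 and 1.34) lie below those of the erythroid (2.32 and 2.20) and neutrophil markers (2.02 and 2.37), and the chondrocyte medians are negative (-2.33 and -1.17).

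Genes whose pattern was most like that of each platelet gene were found as those with the smallest distance in the pair of log2 differences, over 3 libraries. The nearest to Pf4 were Mrgpra2b (distance 0.0096), Ccna2 and Clec5a, and Ccna2, a cyclin of dividing cells, stood at 2.60, 9.03 and 9.81 FPKM. Those nearest to Tubb1 were F630028O10Rik (0.019), Rrm2 and Prg3. Rrm2, the regulatory subunit of ribonucleotide reductase, stood at 2.82, 15.9 and 16.3 FPKM. Ppbp had no near match, and its closest were Ighg1 (0.19), Kel and Alox15, each lower than it in every library. Treml1 was most like Cd79a (0.025), a chain of the B cell receptor complex at 5.49, 21.6 and 12.9 FPKM, then Il1b and 5S_rRNA. Clec1b was most like Asb5 (0.029), Olfr558 and Smc4. Vwf, with Ccl9 (0.0036), Gm43197 and Parvb, and Thbs1, with Slc25a51 (0.00058), Spryd7 and Prex2, had the closest matches. Each likeness rests on 2 differences per gene, which share the WT library. The differences are of log2(FPKM + 1), so genes at unlike levels can match with unlike folds. Asb5, for example, stood at 17.1, 29.5 and 32.3 FPKM in WT, Dspp+/- and Dspp-/-, a smaller fold than that of Clec1b at 0.184, 0.988 and 1.22 FPKM.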

How the data were processed

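RNA from mandibular condyles was sequenced by the study from poly(A)-selected, non-stranded libraries with paired reads of 150 bases. The submitters' processing notes name FastQC 0.11.5, HISAT2 2.1.0, StringTie 1.3.3b and DESeq 1.28.0, and a human build, hg38, although the samples are mouse; the annotation and filters are not given in the sources used here. The authors deposited 1 table with 1 value per gene and genotype, and it does not name its unit. The values were read as FPKM because, multiplied by the merged exon length of GENCODE release M21, the deposited FPKM of 98.6% to 98.7% of values under 100 fragments were whole multiples of 1 constant per library (tolerance 0.05 fragment), and those of all 7 genes were. Lengths were found for 26652 of 26970 genes.

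Genotypes came from the sample labels, 1 library each. Differences were taken as log2(FPKM + 1), for genes averaging 1 FPKM or more, and 2-fold was the threshold of description. No test was run. Intervals and limits cover counting error only, and reads without molecular identifiers are not independent molecules. The genes, the 26 further lists and the alternatives were chosen with earlier results of these data known. From each list the highest gene and those with the largest positive and negative difference in Dspp+/- were named where a result turned on them, as were the genes of short lists. Gp9, Itga2b, Itgb3, Gata1, Gfi1b, Tal1, Srgn, Selp, Nbeal2, Stx11, Slc35d3, Lyst, Alox12, Apbb1ip, Plek, Myh9, Actn1 and the flanking genes were named after their values were seen. Overlaps and 100-base sequences shared with other genes were counted on the M21 transcripts: Pf4, Ppbp, Treml1 and Tubb1 had none, and Clec1b, Vwf and Thbs1 shared 1.66%, 0.392% and 0.234%. Start site windows came from RefSeq (GRCm38.p6). The scripts ran on scipy 1.17.1, pandas 2.3.3, matplotlib 3.10.9 and numpy 2.4.6 under Python 3.11.15, and the steps were checked on simulated data.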

Additional observations from a re-analysis of the deposited data

Results flagged for a closer look

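Mafg, the small Maf protein that pairs with the Nfe2 product, was the 1 gene, of those the naming rule took from the platelet lists, whose mutant intervals lay on opposite sides of a ratio of 1. Its level was higher in Dspp+/- than in WT, by 0.14 on the log2 scale (1.10-fold, 1.04 to 1.17), and lower in Dspp-/-, by -0.29 (0.809-fold, 0.761 to 0.861). The pattern was not particular to Mafg. Myh9 and Actn1, which the rule did not take from these lists, had it too. Myh9 stood at 1.09-fold (1.06 to 1.13) and 0.955-fold (0.926 to 0.984), and Actn1 at 0.921-fold (0.867 to 0.978) and 1.18-fold (1.11 to 1.25). The intervals cover counting error only, each genotype had 1 library, and the difference between the mutants was not tested.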

How the results depend on the processing

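No paired analysis was possible because each genotype had 1 library, and for the same reason no library could be left out. The depth limited Treml1 and Clec1b most, with 15 and 19 fragments in WT. The pseudocount set the size of the median difference between Dspp+/- and WT, which was 1.63 on the log2 scale as reported, 2.12 with a pseudocount of 0.1 and 0.97 with 5. At a threshold of 4-fold, 2 genes, Ppbp and Tubb1, remained higher in Dspp+/- than in WT and the same 2 in Dspp-/-, against 4 at 2-fold, where 0.952% and 0.791% of all genes were past 4-fold. At 1.5-fold, 1 of 6 genes, Treml1, was higher in Dspp+/- than in Dspp-/-, against 4.32% of all genes. Other scalings of the libraries, without the mitochondrially encoded genes among them, and no filter left every count of genes within 1.5 times. An alternative chosen after seeing the data, FPKM per principal transcript, let all 7 genes pass, with 5 of them (Clec1b added) past 2-fold in each mutant, against 5.59% and 4.72% of all genes, and medians of 1.60 and 1.62. Of the values of single genes under the alternatives, 144 moved by less than their interval, 21 moved by more and 0 changed direction. Part of this count was fixed in advance. A change of filter cannot move the value of a single gene, and a change of pseudocount or length cannot reverse its direction. Treml1 had the widest range, 0.76 to 2.82 for Dspp+/- against WT, and Thbs1 one of 0.25 to 0.45.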
